A study of Rattus norvegicus with 12 samples.

Results

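The expression of 8 rat genes, a short list of p53 targets and growth arrest genes, was followed in cultured hippocampal neurons after oxygen-glucose deprivation (OGD), which stands in for ischemia in the dish. The list held Cdkn1a, Mdm2, Gadd45a, Gadd45b, Gadd45g, Ccng1, Btg2 and Sesn1. Its members were chosen by name, but with earlier results of these data known. A probe was found for 7 of the 8 genes through the accession printed beside each probe, with 9 probes in all, out of 15154 named genes and 30367 probes on the array. Where a gene had more than 1 probe, the brightest was used and the other served as a check. No probe could be matched to Sesn1, the gene of a sestrin.

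The study used primary hippocampal neurons of Wistar rat embryos at day 18 of gestation or a day later. They were kept in culture for 14 to 15 days. In the OGD groups the neurons were held for 2 h in an anaerobic chamber, in a saline buffer without glucose that held 25 mM sucrose. Control neurons stayed in an air/CO2 incubator in a like buffer with 25 mM glucose, and both were then returned to conditioned medium for 7 h or 24 h of recovery. Total RNA (200 ng) from 3 independent cultures per group was labeled with Cy3 and hybridized to one-color arrays, giving 12 arrays in the 4 groups control 7 h, OGD 7 h, control 24 h and OGD 24 h. No allele or drug separated the groups. The cultures were mixed: all 12 neuron markers examined, among them Rbfox3, Map2 and Syn1, gave spots well above background on every array, but so did all 8 astrocyte markers and 5 of 8 microglia markers. A lower array value can therefore come from fewer cells of a type or from less RNA per cell, and the arrays cannot tell these apart.

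p53 is a transcription factor that accumulates after DNA damage and other kinds of stress and switches on genes that halt the cell cycle, repair DNA or start apoptosis. Mdm2 closes the circuit, as p53 induces the gene and its product sends p53 to degradation. The 3 GADD45 proteins are small stress sensors that bind the kinase MTK1 upstream of p38 and JNK, and also PCNA and cyclin-dependent kinase 1. Of these only Gadd45a is a classic p53 target, while Gadd45b and Gadd45g answer mainly to other signals, among them cytokines and neuronal activity. Neurons no longer divide, but in these cells p53 and several of its targets are known for their part in death after excitotoxic or ischemic injury.

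Levels are given below as log2 of the processed spot intensity above the median probe of the same array, and differences as OGD minus control on that log2 scale with the standard error of the limma fit (n = 3 arrays per group throughout). A difference is said to pass the test where its unadjusted limma p was under 0.05, and limma p-values adjusted over all probes are printed beside it. The design is small, for an exact two-sided permutation test of 3 arrays against 3 cannot go below p = 0.1. Levels of different probes are not comparable with each other. The median spot intensity of the arrays ran from 131 to 660, with OGD 24 h replicate 1 the dimmest array. On an array, 78.3% to 87.1% of the non-control spots were well above background. All 9 probes of the list were well above background and below saturation on all 12 arrays. The arrays of 7 h and of 24 h were scanned on different days, so that a difference between the times cannot be told apart from scan day. On each day there was an earlier session, which held OGD 7 h replicates 1 and 2 or OGD 24 h replicate 1, and a later one with the other arrays of that day, and results are also given with scan session in the model where this moved them. All differences are relative to the bulk of the probes. Scaled instead to the 1 usable spike-in probe, the median of all probes moved by -0.81 at 7 h and by -1.02 at 24 h with a standard error of 1.12 for every gene, which turned the sign of Btg2 at 7 h and Mdm2 at 24 h but not that of Gadd45g at 7 h and Gadd45a at 24 h.

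At 7 h of recovery, the levels of Gadd45g and Btg2 were higher after OGD than in the control cultures, by 1.03 ± 0.43 and 0.69 ± 0.30. At 24 h Gadd45a (1.19 ± 0.31) and Mdm2 (0.69 ± 0.28) passed the test, while Gadd45g, 0.74 ± 0.43 higher, did not. The responses of Gadd45g and Mdm2 were not shown to differ between the times (24 h minus 7 h, -0.30 ± 0.60 and 0.33 ± 0.39). Thus 2 of 7 genes passed the test upward at 7 h, where 4.79% of all probes did, and 2 of 7 at 24 h, where 7.51% did. None passed downward, beside 7.03% and 6.19% of all probes. With a fold change of at least 2 required as well, 1 gene remained at each time, Gadd45g at 7 h and Gadd45a at 24 h, against 2.08% and 3.71% of all probes. With normexp background correction in place of the scanner software's own, the 4 differences were 0.47 (Gadd45g), 0.16 (Btg2), 0.73 (Gadd45a) and 0.26 (Mdm2), of which that of Gadd45a alone passed. The study's own lists, made from these same arrays, include both genes, so these 2 calls are no independent evidence. The study also tested Gadd45g among other selected genes by qPCR, and reports that most of these changed in the arrays' direction. The qPCR result for Gadd45g itself is not reported here. After Benjamini-Hochberg adjustment over all 30367 probes no gene of the list, and no probe on the array, passed 0.05. In limma the smallest adjusted p among all probes was 0.117 for the 7 h comparison and 0.209 for that of 24 h, while 3590 and 4160 probes had an unadjusted p under 0.05. The median difference over the 7 genes was 0.23 at 7 h and 0.24 at 24 h, beside -0.055 and 0.010 over all probes.

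**Figure D1:**
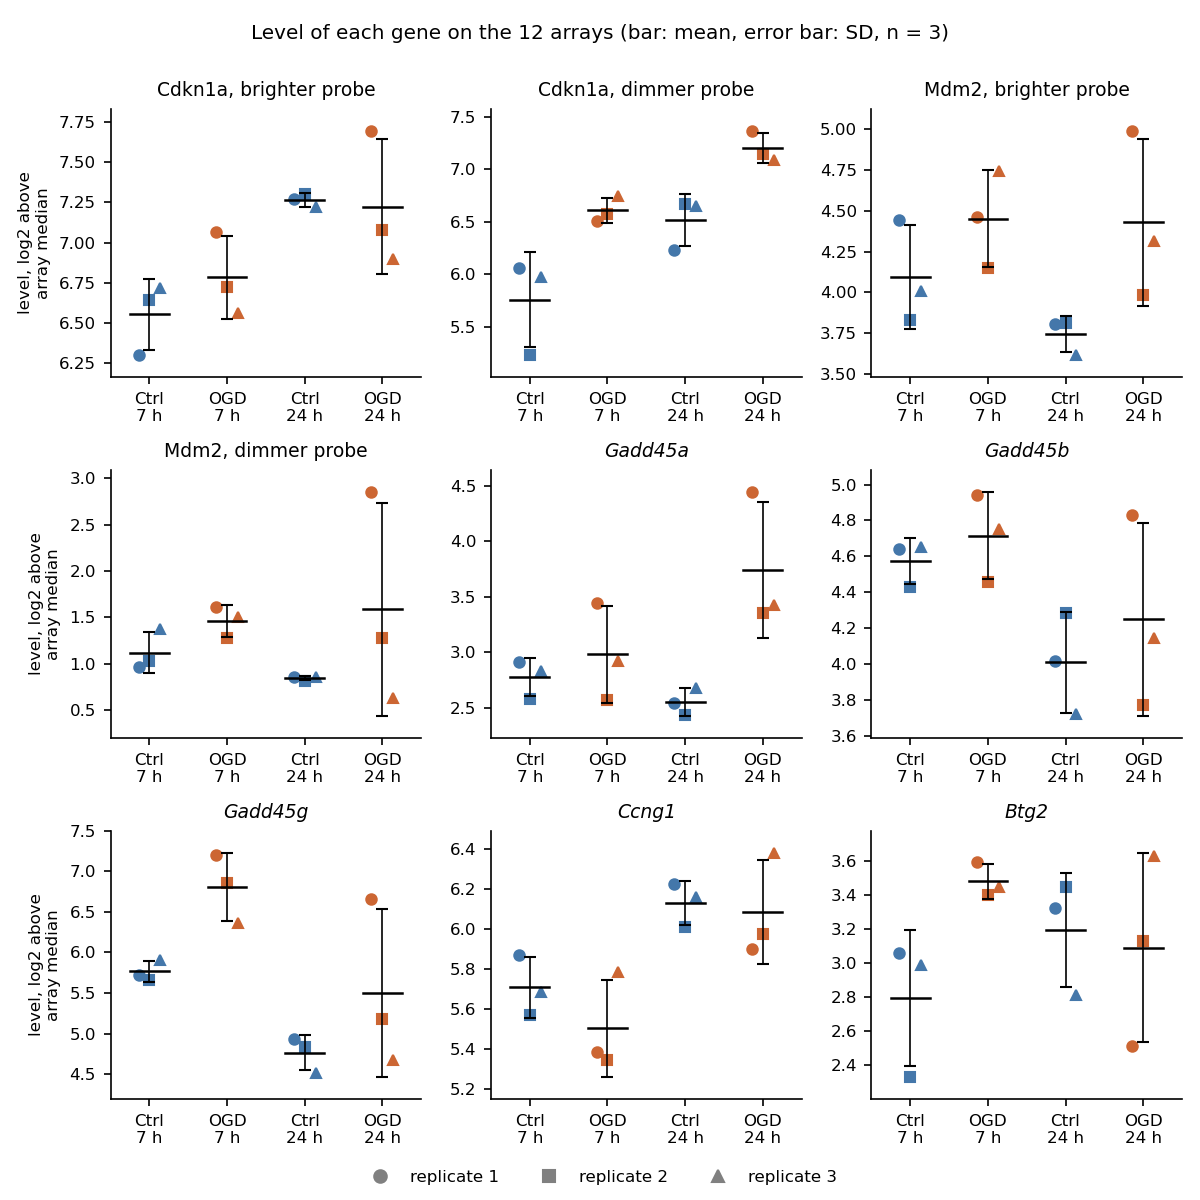
Level of each gene on each of the 12 arrays, in log2 above the array's median probe, by group (blue, control; orange, OGD) and replicate (marker shape), with the mean and SD of 3 arrays. Gadd45g and Btg2 at 7 h, and Gadd45a and Mdm2 (brighter probe) at 24 h, show OGD arrays that all lie above the control arrays, and OGD 24 h replicate 1 is the highest array of its group in 7 of the 9 panels.

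Gadd45a stood at 2.54, 2.43 and 2.68 in the control cultures of 24 h and at 4.45, 3.35 and 3.43 in the OGD cultures of the same time. All 3 OGD arrays lay above all 3 control arrays, replicate 1 by far the most. The difference of 1.19 was 2.28-fold and passed the test (limma adjusted p = 0.262). At 7 h the control arrays read 2.91, 2.58 and 2.83 and the OGD arrays 3.44, 2.57 and 2.92. These overlapped, with a difference of 0.21 ± 0.31 (adjusted p = 0.827). The response at 24 h exceeded that at 7 h by 0.98 ± 0.44, which passed the limma test of the interaction (adjusted p = 1.00), as did 2.18% of all probes in this direction. Without OGD 24 h replicate 1, the dimmest array, the 24 h difference was 0.84, under 2-fold but still past the test. It was 1.00 with scan session in the model, again past it, and leaving out any other array kept it between 1.13 and 1.39. The interaction was less firm, for it missed the test without any 1 of 8 of the 12 arrays, with 0.63 as the lowest value, without OGD 24 h replicate 1. The other 7 such arrays were all 3 of control 24 h, control 7 h replicates 1 and 3, and OGD 7 h replicates 2 and 3 (0.78 to 1.05). In order of mean level the groups ran control 24 h, control 7 h, OGD 7 h and OGD 24 h, and of the neighbors only the last pair differed by the test, by 0.76.

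Gadd45g stood at 5.73, 5.67 and 5.91 in the control cultures of 7 h and at 7.20, 6.86 and 6.36 after OGD. The controls lay close together, and each OGD array was above them all. The difference of 1.03 was 2.05-fold and passed the test (limma adjusted p = 0.388). It missed the test when any 1 of the 7 h arrays other than OGD replicate 3 was left out (0.84 to 1.11). With scan session in the model the difference was 0.23, and in the later session alone, where OGD 7 h keeps 1 array, it was 0.59, neither of which passed. At 24 h the control arrays read 4.93, 4.84 and 4.52 and the OGD arrays 6.66, 5.18 and 4.67. Replicate 1 was far above the rest and replicate 3 lay among the controls, so that the groups overlapped (0.74 ± 0.43, adjusted p = 0.453). That difference was 0.16 without replicate 1, and without replicate 3 it was 1.15 and passed. The level also fell between the times, by 1.00 in the controls (adjusted p = 0.317) and by 1.30 in the OGD cultures (adjusted p = 0.169). The fall in the controls missed the test without OGD 7 h replicate 2 or any 1 of the 6 control arrays (-0.88 to -1.09). The order of mean level was control 24 h, OGD 24 h, control 7 h and OGD 7 h, and among neighbors the last pair alone passed the test.

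Gadd45b, the family member best known as an immediate response gene of active neurons, showed no detectable difference. Its control arrays read 4.64, 4.43 and 4.65 at 7 h and its OGD arrays 4.94, 4.46 and 4.75. At 24 h they read 4.02, 4.29 and 3.72, against 4.83, 3.77 and 4.15 after OGD. The groups overlapped at both times, with differences of 0.14 ± 0.27 (adjusted p = 0.855) and 0.24 ± 0.27 (adjusted p = 0.705). Its groups stood in the same order as those of Gadd45g, but no neighbors in it differed by the test.

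The promoters of the 2 GADD45 genes that passed a 2-fold call are shown because they carry the same pair of elements before the start of the gene. The windows come from the RefSeq promoter table (rat build GRCr8, 250 bases before to 50 after each start, 33469 promoters, all 8 genes of the list found). Both are on the minus strand and are written 5′ to 3′, with the octamer ATTTGCAT and the box CCAAT in capitals.
Gadd45a, chr4:97486869-97486924: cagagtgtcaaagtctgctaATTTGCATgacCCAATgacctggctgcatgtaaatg
Gadd45g, chr17:13530431-13530490: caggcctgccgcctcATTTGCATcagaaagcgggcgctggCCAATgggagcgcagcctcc
The octamer, searched on both strands, was in 1.78% of all promoters and CCAAT in 37.5%. Counted from the annotated start, the octamer began at -105 in Gadd45a and at -124 in Gadd45g, and CCAAT at -94 and -99. Gadd45b had no octamer in its window, but 2 CCAAT boxes and, like Gadd45g, the E-box CACGTG, which 6.42% of promoters held. These are matches of letters and say nothing of which factor bound there.

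Cdkn1a, which encodes the cyclin-dependent kinase inhibitor p21 and is the best known target of p53, gave different answers with its 2 probes. The brighter probe read 6.30, 6.64 and 6.71 in the control cultures of 7 h and 7.07, 6.72 and 6.56 after OGD. At 24 h it read 7.27, 7.30 and 7.22 against 7.70, 7.08 and 6.90. The groups overlapped at both times, with differences of 0.23 ± 0.24 (adjusted p = 0.723) and -0.041 ± 0.24 (adjusted p = 0.982). The dimmer probe, assigned to the same transcript accession, read 6.06, 5.23 and 5.98 in the controls of 7 h and 6.51, 6.57 and 6.74 after OGD. At 24 h it read 6.23, 6.66 and 6.65 against 7.36, 7.15 and 7.09. Here every OGD array lay above every control array at both times, and the differences of 0.85 ± 0.24 (adjusted p = 0.270) and 0.69 ± 0.24 (adjusted p = 0.295) passed the test. The 24 h difference of this probe was 0.55 without control 24 h replicate 1, which did not pass. The mean of both probes rose by 0.54 at 7 h and stood 0.32 higher at 24 h, of which only the first passed. The 2 probes were alike in the controls, where the level was higher at 24 h than at 7 h by 0.71 (adjusted p = 0.227) on the brighter probe and by 0.76 (adjusted p = 0.203) on the dimmer one. The first of these was 0.59 without control 7 h replicate 1 and then missed the test. On the brighter probe the groups ran control 7 h, OGD 7 h, OGD 24 h and control 24 h, with no test passed between neighbors.

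Mdm2, the ubiquitin ligase that p53 induces against itself, stood at 3.81, 3.81 and 3.62 in the controls of 24 h and at 4.99, 3.98 and 4.32 after OGD. The controls were tight and all OGD arrays were higher, replicate 1 most of all, with a difference of 0.69 ± 0.28, or 1.61-fold, that passed the test (limma adjusted p = 0.330). It was 0.41 without OGD 24 h replicate 1 and 0.62 to 0.72 without any 1 of the 24 h controls, and missed the test in each case, as it did when limma was run on the 24 h arrays alone. At 7 h the controls read 4.45, 3.83 and 4.01 and the OGD arrays 4.46, 4.15 and 4.75, which overlapped (0.36 ± 0.28, adjusted p = 0.624). A dimmer second probe gave like differences of 0.34 ± 0.44 and 0.74 ± 0.44 that did not pass, and its OGD arrays of 24 h were spread from 0.63 to 2.85. The response at 24 h differed from that at 7 h by 0.33 ± 0.39, within its error. In order of mean level the groups of the brighter probe ran control 24 h, control 7 h, OGD 24 h and OGD 7 h, with no test passed between neighbors.

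Btg2, an antiproliferative gene that p53 and growth factors induce early, stood at 3.06, 2.33 and 2.99 in the controls of 7 h and at 3.60, 3.40 and 3.45 after OGD. The OGD arrays were tightly grouped and all higher, while control replicate 2 was well below the other controls. The difference of 0.69 was 1.61-fold and passed the test (limma adjusted p = 0.416). It was 0.46 without that control array and 0.63 to 0.73 without any 1 of the 3 OGD 7 h arrays, none of which passed, and by a wider spread alone it also missed the test without control 24 h replicate 1 or 2 or OGD 24 h replicate 2. With scan session in the model it was 0.96 and passed. At 24 h the controls read 3.33, 3.45 and 2.82 and the OGD arrays 2.52, 3.13 and 3.63. These overlapped widely (-0.11 ± 0.30, adjusted p = 0.921), and replicate 1, the highest OGD 24 h array for the GADD45 genes, Cdkn1a and Mdm2, was the lowest for Btg2. The response at 24 h minus that at 7 h was -0.79 ± 0.43, which did not pass, although it did with the 75th percentile or quantile normalization (-0.79 and -0.77) and without OGD 24 h replicate 3 (-1.06). The groups ran control 7 h, OGD 24 h, control 24 h and OGD 7 h, and no neighbors in this order differed by the test. The Btg2 promoter is shown as the only one of the 8 with a full cyclic AMP response element, TGACGTCA, here in capitals, which 1.83% of all promoters held (minus strand, 5′ to 3′).
Btg2, chr13:48087864-48087911: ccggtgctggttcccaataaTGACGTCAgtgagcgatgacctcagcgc
The element began at -201. The AP-1 motif TGANTCA, present in 7.33% of promoters, was in none of the 8 windows.

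Ccng1, which encodes cyclin G1 and is a p53 target in many tissues, read 5.87, 5.57 and 5.68 in the controls of 7 h and 5.39, 5.35 and 5.78 after OGD. At 24 h it read 6.22, 6.01 and 6.16 against 5.90, 5.98 and 6.38. The groups overlapped at both times, and the differences of -0.20 ± 0.20 (adjusted p = 0.707) and -0.047 ± 0.20 (adjusted p = 0.961) did not pass. Between the times its level rose in the OGD cultures by 0.58 (adjusted p = 0.180), and in the controls the difference was 0.42 (adjusted p = 0.352) and did not pass. The groups ran OGD 7 h, control 7 h, OGD 24 h and control 24 h, with no test passed between neighbors.

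Cdkn1a and Ccng1 are set side by side because theirs were the only promoters of the 8 with a p53 element in the window. The element sought was a pair of adjacent half-sites of the p53 consensus, 20 bases in all with at most 1 mismatch, found in 17 of the 33469 promoters (0.0508%). It is in capitals in both windows, written 5′ to 3′, Cdkn1a on the plus and Ccng1 on the minus strand.
Cdkn1a, chr20:7150711-7150770: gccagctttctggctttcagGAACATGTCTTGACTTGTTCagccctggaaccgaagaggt
Ccng1, chr10:25685079-25685126: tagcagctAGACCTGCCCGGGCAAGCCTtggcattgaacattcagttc
Counted from the annotated start, the element spanned -201 to -182 in Cdkn1a and -242 to -223 in Ccng1. The known p53 elements of Mdm2 and Gadd45a lie in an intron, outside a window of this kind, and were not searched here. Elements with a gap between the half-sites or with more mismatches were not sought, so a window without a match can still hold a p53 element.

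**Figure D2:**
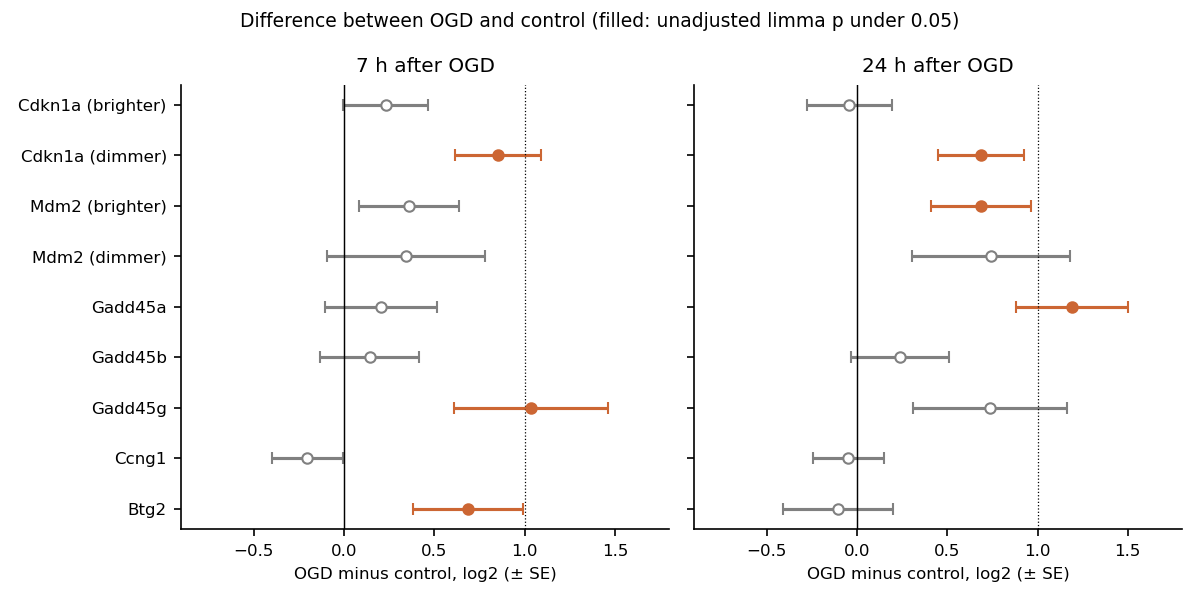
Log2 difference between OGD and control (± SE of the limma fit, 3 arrays per group) at 7 h and 24 h for the 9 probes, filled where the unadjusted p was under 0.05, with a dotted line at a 2-fold change. At 7 h Gadd45g (1.03), the dimmer probe of Cdkn1a (0.85) and Btg2 (0.69) are filled, and at 24 h Gadd45a (1.19), Mdm2 (0.69) and the dimmer probe of Cdkn1a (0.69).

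All OGD arrays lay above all controls for 2 of the 7 genes at each time, against 10.6% of probes at 7 h and 10.9% at 24 h. Over the 12 arrays the levels of Gadd45b and Gadd45g went together most closely within the list (Pearson r = 0.83), followed by Mdm2 with Gadd45a (0.74) and with Gadd45b (0.73), and Gadd45g ran opposite to Ccng1 (-0.84). These values describe 12 arrays that fall into groups by treatment, time and scan day. Between the controls of the 2 times, 2 of the 7 genes differed, Cdkn1a upward, as did 5.65% of all probes, and Gadd45g downward, as did 9.07%.

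Other genes of the p53 pathway were read from 5 lists of 57 genes, 49 of them with a probe. The counts below use the brightest probe of each gene. Of the 10 p53 targets with a role in apoptosis, 1 rose at 7 h and 3 rose at 24 h by an unadjusted limma p under 0.05, none fell, and none of the 4 differences reached 2-fold. Of all probes 4.79% and 7.51% were higher by this test. Bax, whose product permeabilizes the mitochondrial membrane, read 3.67, 3.66 and 3.79 in the controls of 24 h and 4.47, 4.06 and 4.03 after OGD. All OGD arrays were higher, by 0.48 ± 0.17 (adjusted p = 0.303), although without control 24 h replicate 2 the difference of 0.46 missed the test. The nuclease gene Aen (0.51) was another of the 3 at 24 h, but its second probe gave 0.43 and did not pass. Apaf1, which encodes the scaffold of the apoptosome, read 1.44, 1.61 and 1.45 in the controls of 7 h and 1.88, 2.17 and 2.18 after OGD, again without overlap. It was higher by 0.58 ± 0.20 (adjusted p = 0.322), but its second probe gave -0.020, and the difference of 0.53 without OGD 7 h replicate 2 missed the test. The BH3-only gene Bbc3 (0.49) and the death receptor gene Fas (0.37) did not pass at 7 h, and for Pmaip1, another BH3-only gene, no control array gave a spot well above background, so no difference is given. The median of this list was 0.31 at 7 h and 0.50 at 24 h, beside -0.055 and 0.010 over all probes.

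Of the 13 p53 targets of growth arrest, repair and metabolism, 2 fell at 7 h, where 7.03% of all probes fell, none rose, and none passed at 24 h. Second probes of Polk (-0.54) and Tigar (-0.47) also passed at 7 h, and that of Tigar passed at 24 h (-0.43). Sesn2, a sestrin that restrains mTORC1 under stress, read 1.76, 2.42 and 1.94 in the controls of 7 h and 0.95, 0.94 and 1.42 after OGD. The groups did not overlap, and it fell by 0.94 on the log2 scale (SE 0.38, adjusted p = 0.373), and it missed the test without control 7 h replicate 2 or OGD 7 h replicate 1 or 2 (-0.75 to -0.86). Ppm1d, the gene of a phosphatase that switches the p53 response off, read 3.18, 2.87 and 2.52 in the controls of 7 h and 1.87, 2.35 and 2.42 after OGD. It fell by 0.64 on the log2 scale (SE 0.29, adjusted p = 0.418), and this missed the test without any 1 of 7 arrays, namely replicates 1 and 2 of control 7 h and of OGD 7 h, replicates 2 and 3 of control 24 h and replicate 2 of OGD 24 h (-0.47 to -0.71). The list had a median of -0.063 at 7 h and -0.19 at 24 h.

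Among 11 genes that regulate p53 or are related to it, 1 rose at 7 h, where 4.79% of all probes did, 3 rose at 24 h, where 7.51% did, and none fell. A second probe of Tp63, however, gave -2.01 at 7 h and -1.02 at 24 h and passed at both times. Hipk2, a kinase that phosphorylates p53 after severe damage, read 5.25, 5.33 and 5.20 in the controls of 7 h and 5.77, 5.74 and 5.73 after OGD. At 24 h it read 4.27, 4.25 and 4.46 against 5.46, 4.89 and 5.13. It was higher after OGD on all arrays of both times, by 0.48 ± 0.18 (adjusted p = 0.336) and 0.83 ± 0.18 (adjusted p = 0.252). At 7 h it missed the test without control 7 h replicate 3 (0.45) and with scan session in the model (0.33). Chek2, a checkpoint kinase of the same pathway, read -2.13, -2.02 and -1.86 in the controls of 24 h and -1.18, -1.21 and -1.53 after OGD, without overlap (0.70 ± 0.20, adjusted p = 0.269). Cdkn2a rose as well, by 0.67. The median of these genes was 0.45 at 7 h and 0.27 at 24 h.

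On the probes used, relatives of the listed genes held the single call of at least 2-fold among the 49 pathway genes. Cdkn1c, a cyclin-dependent kinase inhibitor of the same family as Cdkn1a, read 4.20, 3.75 and 4.24 in the controls of 7 h and 0.87, 1.58 and 2.39 after OGD. Every OGD array was far below the controls, and the level fell by 2.45 on the log2 scale (SE 0.66, limma adjusted p = 0.264), a downward call that 1.66% of all probes shared. Its second probe gave -2.01 at 7 h. The difference passed the test in all 25 alternatives tried, between -1.34 and -3.26. By 24 h it was -0.71 and did not pass. The other 5 relatives, Cdkn1b, Ccng2, Btg1, Btg3 and Sesn3, did not pass at either time. Of the 9 genes for partners of the GADD45 proteins none passed on the probe used. A second probe of Map2k4 stood lower after OGD at 7 h (-0.47) and passed. Map3k4, the gene of MTK1, read 0.77, 1.14 and 1.25 in the controls of 7 h and 0.36, 0.65 and 0.70 after OGD, below every control (-0.48 ± 0.26, adjusted p = 0.494), and its difference at 24 h was -0.54. Map2k6, a kinase between MTK1 and p38, differed by -0.25 and -0.85, with OGD 24 h replicate 1 at -1.33 and the other OGD 24 h arrays at 0.81 and 0.26.

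**Figure D3:**
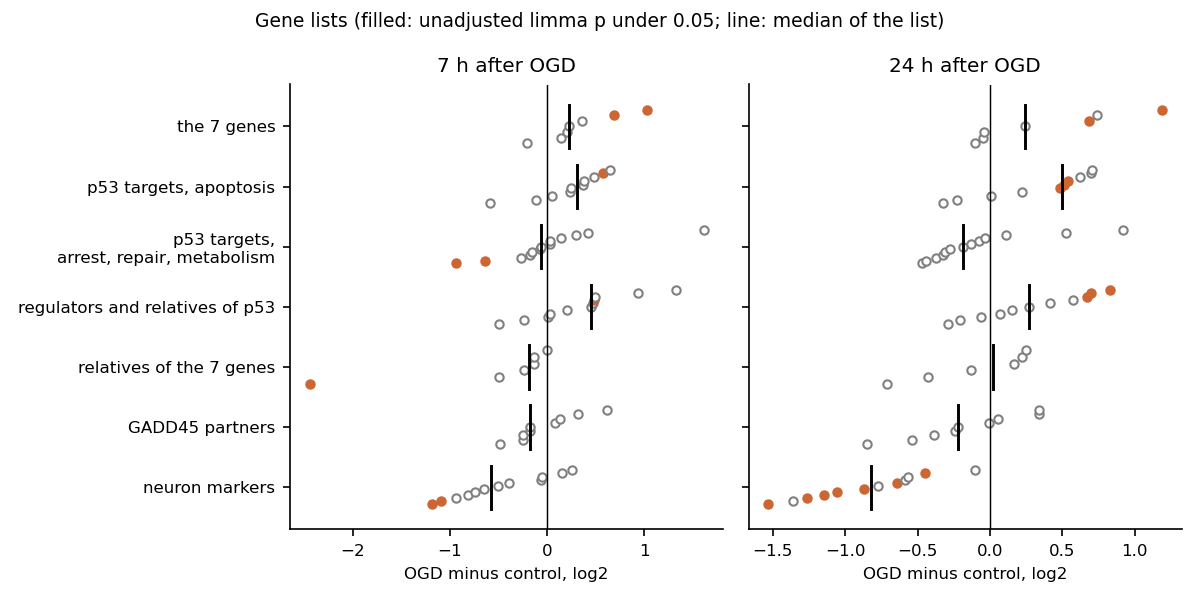
Log2 difference between OGD and control for each gene of the lists at 7 h and 24 h, 1 point per gene, filled where the unadjusted limma p was under 0.05, with the list's median as a line. The apoptosis list has its median to the right of 0 (0.31 and 0.50), the neuron markers to the left (-0.58 and -0.82), and Cdkn1c is the point at -2.45 among the relatives.

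Markers of cell types moved at the same times. Of the 12 neuron markers 2 fell at 7 h and 7 fell at 24 h, beside 7.03% and 6.19% of all probes, none rose, and their summed level on the array was 164 to 442 in OGD 24 h against 431 to 659 in control 24 h (298 to 444 against 415 to 544 at 7 h, in units of the median probe). The astrocyte markers summed to 1146 to 1461 in OGD 7 h against 918 to 1047 in control 7 h. Of these 8 genes 2 were higher at 7 h, where 4.79% of all probes were. At 24 h the 2 groups overlapped and no gene passed. The 2 genes higher at 7 h, Slc1a3 and Aldoc, had saturated spots on 5 and 11 of the 12 arrays. Their other probes gave a difference of 0.03 each at 7 h. They had the highest mean levels of the 8 in OGD 7 h (8.48 and 8.51), so that the sums at 7 h lean on them. The vascular and fibroblast markers summed to 129 to 234 in OGD 24 h against 33.9 to 140 in control 24 h, which overlapped. Of these 10 genes 2 fell at 7 h (Pecam1 and Cldn5) and 1 rose at 24 h (Pdgfrb, by 1.34), while the collagen genes Col1a1 and Col1a2 (1.49) did not pass. Of 8 microglia markers Cx3cr1 rose at 7 h, by 1.02, and Cd68 at 24 h, by 0.96. The 2 probes of Aif1 disagreed, with -0.19 and 0.29 at 7 h and 24 h on the brighter and 1.72 and 1.33 on the other. Of 10 markers of the oligodendrocyte lineage Cspg4 and Sox10 fell at 7 h, by 1.07 and 0.96, and Olig2 rose at 24 h, by 0.48. None of 4 proliferation markers passed. In each of these lists every marker was well above background on at least 1 array. The part of these shifts in the values of Gadd45a, Gadd45g, Mdm2 and Btg2 was not tested.

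For each gene of the list, the genes most alike over the 12 arrays were sought among 10904 genes well above background on all of them. For Gadd45g these were Steep1 (r = 0.99), Gtpbp4 (0.97) and Maff (0.97), and for Gadd45a they were Pi4k2b (0.96), Bag1 (0.94) and Fkbp11 (0.94). Mdm2 was nearest to C1h11orf98 (0.95), Tgif1 (0.94) and Yae1l1 (0.94), Cdkn1a to Spsb4 (0.95), Pdxdc1 (0.93) and Brdt (0.93), and Ccng1 to Dad1, Smim20 and B9d1 (each 0.95). Gadd45b had Rnf4 (0.92), Olfm5 (0.91) and H3f4 (0.90), and Btg2, with the lowest values, Ints13 (0.83), Cdc42ep3 (0.83) and Ntaq1 (0.82). They are given as a description, since each is among the highest of 10904 values over 12 arrays. Of those nearest to Gadd45g, Maff, a small bZIP transcription factor, stood 1.46 higher after OGD at 7 h and 1.07 higher at 24 h.

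**Figure D4:**
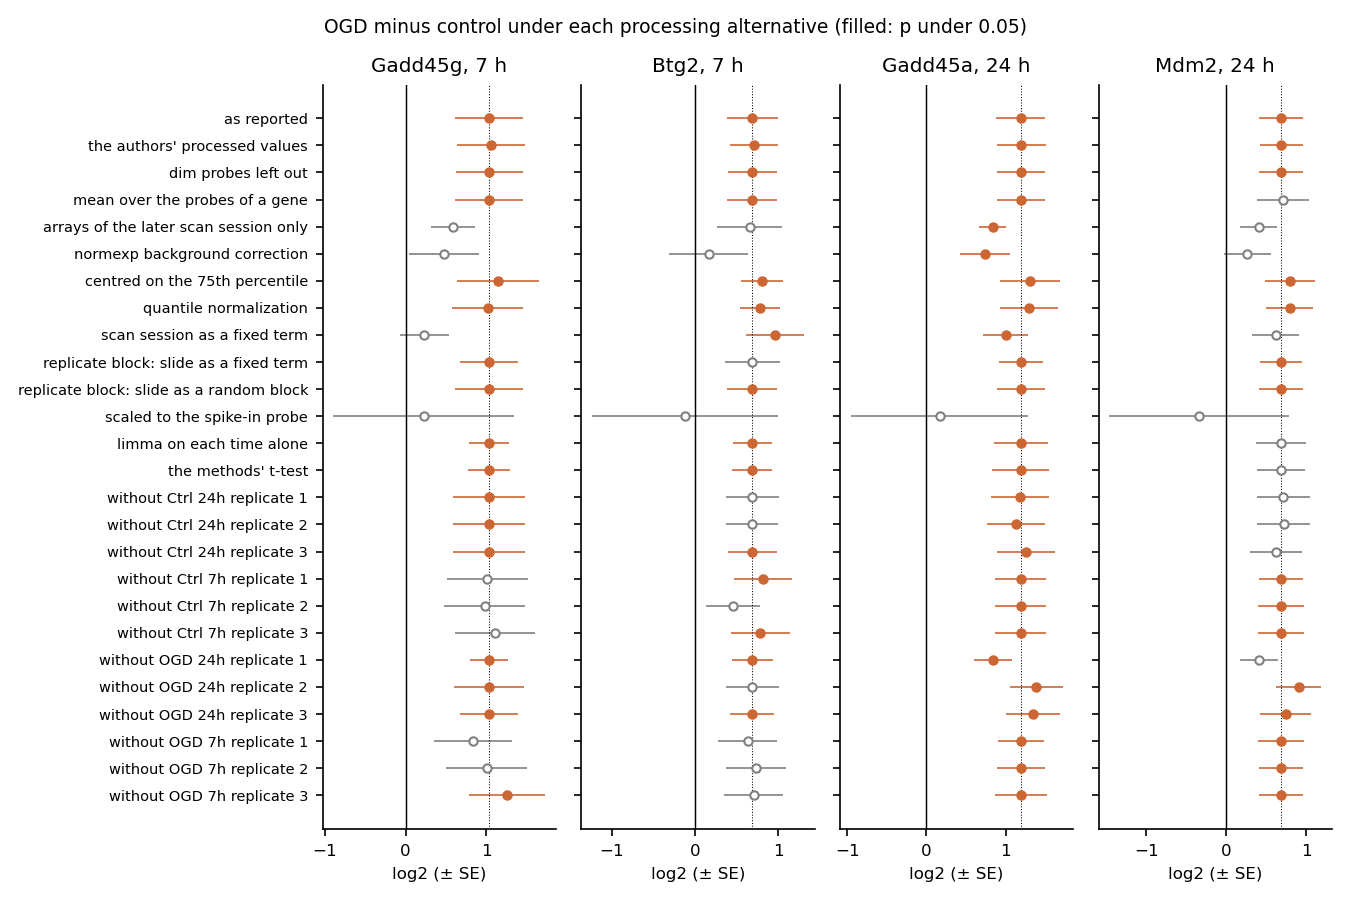
OGD minus control (log2 ± SE) for the 4 differences that passed, under the reported processing (top row, dotted line) and each alternative, filled where the p was under 0.05. Gadd45a at 24 h is filled in all settings except scaling to the spike-in probe (0.17), while Gadd45g at 7 h drops to 0.23 with scan session as a term and Mdm2 at 24 h to 0.41 without OGD 24 h replicate 1.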

How the data were processed

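Cy3-labeled RNA of 12 cultures was hybridized by the authors to one-color Agilent rat arrays, 2 arrays per slide. The deposited intensity of each spot (processed signal) came from Feature Extraction 10.5.1.1, per the file headers, with background subtracted and no scaling between arrays. A table of log2 values, centered on the median of each array by the authors, was deposited too and served as an alternative. Per array it differed from the log2 values used here by 1 constant.

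Spots with an outlier flag were left out, spots of a probe were averaged on the log2 scale, and each array was centered on the median of its 30367 non-control probes. limma 3.58.1 (R 4.3.3) was fitted to all 12 arrays with 4 group means. P-values are two-sided and unadjusted unless named adjusted (Benjamini-Hochberg over all probes), and a call needs p under 0.05 and a fold change of at least 2. The program was tested on simulated data. Probes were named through their accessions in RefSeq, which named 18004 probes and left 12363 unnamed. A missing value was dropped in 70 cases, none in a probe of the 8 genes. The precision is limited by 3 cultures per group.

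The genes, lists and tests were chosen with earlier results of these data known. Apart from the 8 genes, the text names the genes of each pathway list that were called or, where none was, the 2 with the lowest p. The others given with values were chosen after these were seen. Some genes of the lists are not reported here. The normexp alternative used the median spot signal, as the files used held no mean signal. Scan session was added as an alternative after seeing the data.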

Additional observations from a re-analysis of the deposited data

Results flagged for a closer look

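The response of Gadd45a to OGD was larger at 24 h than at 7 h by 0.98 on the log2 scale, and it was the only one of the 7 genes for which the test of that difference had an unadjusted limma p under 0.05 (adjusted p = 1.00). The test was missed in 13 of 23 alternatives, where the difference ranged from 0.63 to 1.05. In other settings the test was passed downward, by Btg2 with the 75th percentile (-0.79), quantile normalization (-0.77) and without OGD 24 h replicate 3 (-1.06), and by Gadd45g without OGD 24 h replicate 1 (-0.87).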

How the results depend on the processing

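No difference passed after adjustment, and the 4 genes that passed did so narrowly apart from Gadd45a at 24 h, which missed the test in 1 of 25 alternatives. Replicate numbers did not pair the arrays (correlations of same-numbered deviations -0.05 to 0.17). With slide as a fixed term (replicate block), Btg2 at 7 h kept 0.69 but missed the test, as did Ppm1d, pathway genes called at 7 h went from 1 to 2, and no other of the 7 genes stopped passing. With slide as a random block both genes passed and the count stayed at 1. Genes of the 7 called went from 1 to 0 at both times with the later scan session alone, scan session as a term, normexp and the spike-in probe, and with 1 array left out ranged from 0 to 1 at 7 h and 0 to 2 at 24 h. Genes with a differing response (1) went to 0 with the authors' values, normexp and the spike-in (0 to 2 with 1 array out). Those differing between controls (2) went to 4 with the later session or session term, 1 with normexp or the 75th percentile and 7 with the spike-in (0 to 4). Pathway genes called at 7 h (1) were 4 in the later session and with normexp, 2 with the session term and 2 with each time alone (1 to 4), and at 24 h (0) they ranged from 0 to 2 with 1 array out. Probes called at 7 h (1136) were 2918 with normexp, 719 with the session term and 358 with the spike-in (664 to 1750). At 24 h (1721) they were 863 in the later session, 743 with normexp, 1118 with the session term, 537 with the spike-in and 634 by the methods' t-test (814 to 3045).

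Signs turned as follows. The spike-in turned Cdkn1a (-0.58), Mdm2 (-0.45), Gadd45a (-0.60), Gadd45b (-0.67), Btg2 (-0.12), Apaf1 (-0.23) and Hipk2 (-0.32) at 7 h, Mdm2 (-0.34), Gadd45b (-0.78), Gadd45g (-0.29), the dimmer Cdkn1a probe (-0.34), Bax (-0.54), Hipk2 (-0.19) and Chek2 (-0.33) at 24 h, and Cdkn1a between controls (-3.86). Normexp turned Cdkn1a (-0.35), Mdm2 (-0.24), Gadd45a (-0.22), Gadd45b (-0.42) and Hipk2 (-0.11) at 7 h and Gadd45b (-0.14) at 24 h. The session term turned Cdkn1a (-0.12), Gadd45a (-0.18), Gadd45b (-0.13) and Ccng1 (0.029) at 7 h, and Ccng1 (0.069) and Btg2 (0.030) at 24 h. The later session alone turned Ccng1 at 7 h (0.075) and Gadd45b (-0.050), Ccng1 (0.046) and Btg2 (0.18) at 24 h. The 75th percentile turned Cdkn1a (0.071), Ccng1 (0.066) and Btg2 (0.0071), quantile normalization Ccng1 (0.031) and Btg2 (0.011), and the mean of probes Cdkn1a (0.32), all at 24 h. The session term turned the change in response of Gadd45g between the times (0.10), which ranged from -0.87 to 0.12 with 1 array out. With 1 array left out, Gadd45a at 7 h ranged from -0.026 to 0.41, and at 24 h Cdkn1a from -0.28 to 0.12, Gadd45b from -0.050 to 0.48, Ccng1 from -0.19 to 0.046 and Btg2 from -0.37 to 0.18. Of all these turned values only Cdkn1a between controls passed the test. The cause was not tested. All 9 probes were well above background on all arrays, and 3 arrays per group limit the precision.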

Other observations

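Some genes of the pathway had large but scattered differences, picked out after their values were seen. Gdf15, a secreted stress factor that p53 can induce, stood 1.61 higher after OGD at 7 h and 0.92 higher at 24 h. The p53 relative Tp63 stood 0.94 higher at 7 h. None of these passed the test, while a second probe of Tp63 fell by 2.01 at 7 h and by 1.02 at 24 h, and both falls passed (unadjusted limma p under 0.05).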
